A study of Mus musculus with 2 samples.

Results

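Msl1 and Nsl1 were followed at 10 genes of the Notch pathway in wild type mouse embryonic stem cells (mESCs). Notch1, Notch2 and Notch3 code for receptors, Dll1, Jag1 and Jag2 for ligands, Rbpj for the DNA-binding factor of the pathway, and Hes1, Hes5 and Hey1 for repressors that are its classic targets. They were chosen by name, with earlier results of these data known, and all 10 were found among the 22359 protein-coding genes of the annotation. The cells were mESCs of the E14 line, for which no treatment is named, with the genetic background 129P2/OlaHsd, at passage 26, and each antibody (anti-Msl1 or anti-Nsl1) had 1 ChIP-seq library. Msl1 is a subunit of the MSL complex and Nsl1 of the NSL complex, which share the histone acetyltransferase Mof. The Msl1 library held 19483142 distinct nuclear reads and the Nsl1 library 24883001. The libraries were made with different kits, and no replicate or Input library was used here, so a difference between them compares 2 libraries and has no p-value. All intervals are exact 95% intervals with a lower and an upper bound that cover counting error only. Expression was not measured in these files, so the cell type rests on the labels.

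In Notch signalling, a Delta or Jagged ligand on 1 cell binds a Notch receptor on its neighbour. The receptor is then cut inside the membrane by gamma-secretase, and its intracellular part enters the nucleus, where it joins Rbpj and coactivators of the Mastermind family at target genes such as Hes1, Hes5 and Hey1. In mESCs the pathway is best known for its part in the choice of the neural fate during differentiation.

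The promoters with the highest and the lowest read levels in either library were those of Hes5 (highest for Msl1), Notch1 (lowest for Msl1), Notch2 (highest for Nsl1) and Jag2 (lowest for Nsl1). They are shown as the 250 bases of mm9 before the 5′-most start of a coding transcript, read 5′ to 3′ on the strand of the gene. The read levels are those at that start. At its start 12.8 kb downstream, described below and not shown here, Notch1 was not the lowest for Msl1. Hes1 was added after its motifs had been seen. Capitals mark TGGGAA, the core of the motif that Rbpj recognises, or TTCCCA, the same motif on the other strand.
Hes5, chr4:154334782-154335031, plus strand: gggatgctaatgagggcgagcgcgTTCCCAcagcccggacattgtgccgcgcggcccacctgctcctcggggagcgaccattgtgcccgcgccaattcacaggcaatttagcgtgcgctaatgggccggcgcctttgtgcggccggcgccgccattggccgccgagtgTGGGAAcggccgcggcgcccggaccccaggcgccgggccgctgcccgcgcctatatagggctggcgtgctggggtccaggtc
Hes1, chr16:30065176-30065425, plus strand: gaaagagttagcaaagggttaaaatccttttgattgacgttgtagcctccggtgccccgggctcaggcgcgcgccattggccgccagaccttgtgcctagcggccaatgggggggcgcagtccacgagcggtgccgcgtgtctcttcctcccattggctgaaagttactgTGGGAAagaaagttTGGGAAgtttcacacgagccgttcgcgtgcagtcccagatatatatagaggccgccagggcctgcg
Notch1, chr2:26372184-26372433, minus strand: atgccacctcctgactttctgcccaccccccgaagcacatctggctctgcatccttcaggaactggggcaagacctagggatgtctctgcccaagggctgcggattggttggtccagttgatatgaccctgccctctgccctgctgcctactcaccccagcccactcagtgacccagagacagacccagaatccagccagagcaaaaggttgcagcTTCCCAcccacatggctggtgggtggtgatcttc
Notch2, chr3:97817211-97817460, plus strand: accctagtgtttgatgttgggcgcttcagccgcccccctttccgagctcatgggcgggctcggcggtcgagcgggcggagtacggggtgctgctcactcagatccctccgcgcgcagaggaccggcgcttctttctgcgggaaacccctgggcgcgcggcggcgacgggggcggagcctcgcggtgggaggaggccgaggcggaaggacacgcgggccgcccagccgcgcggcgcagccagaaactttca
Jag2, chr12:114167707-114167956, minus strand: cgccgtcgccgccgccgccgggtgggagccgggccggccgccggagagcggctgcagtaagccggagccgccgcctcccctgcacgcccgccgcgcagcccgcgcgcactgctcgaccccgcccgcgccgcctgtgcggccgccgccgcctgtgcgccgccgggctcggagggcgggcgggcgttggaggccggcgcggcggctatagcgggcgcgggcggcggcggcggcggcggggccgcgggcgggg

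Hes5 held 2 matches, at -226 and -82 bases, and Hes1 held 2 matches, at -80 and -66 bases, given for the match's first base with the base before the TSS as -1. Notch1 held 1 match at -34 bases. The other 7 genes held none in this window, and 21.0% of 22354 promoters of this length held at least 1. A match is a stretch of letters and was not examined for binding of Rbpj. The 250 bases of Jag2 were 87.2% G or C with 54 CG dinucleotides, those of Notch2 72.0% with 34, and those of Notch1 59.2% with 2, whereas the median promoter held 9 CG dinucleotides.

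To ask where both proteins lie at these genes, the reads within 500 bases of the 5′-most coding TSS were divided by the local level, the reads per kb from 5 to 50 kb away, up- and downstream, in that library. Msl1 reads were at least 2 times the local level at 8 of the 10 genes, all but Notch1 and Rbpj. Over the 21737 protein-coding TSSs with a local level of at least 1 read per kb, 46.0% reached this fold for Msl1. Nsl1 reads reached it at 1 of the 10 genes, Notch2, against 41.9% of all TSSs. The median ratio of the 10 genes was 2.35 for Msl1 and 1.43 for Nsl1, beside 1.85 and 1.72 over all TSSs. Notch2 was the only gene of the 10 called in both libraries, beside 30.7% of all TSSs. Against the mean level of each library over the genome in place of the local level, the counts were 9 for Msl1, beside 58.2% of all TSSs, and 6 for Nsl1, beside 52.6%.

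**Figure D1:**
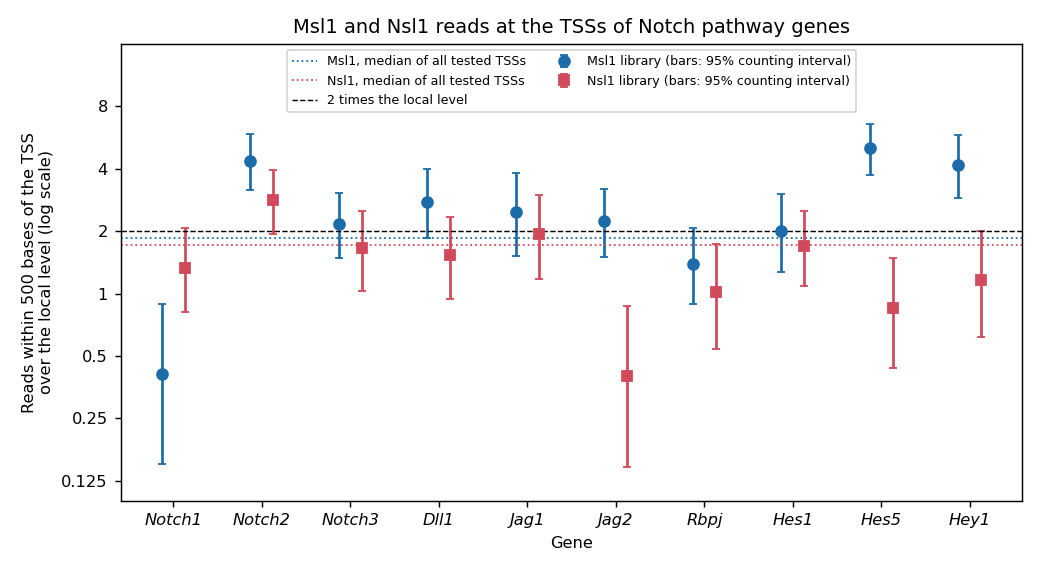
Reads within 500 bases of the 5′-most coding TSS over the local level (y axis, log scale) for the 10 genes (x axis), with 95% counting intervals; the dashed line marks 2 times the local level and the dotted lines the median of all tested TSSs in each library. Msl1 lay highest at Hes5 (5.02), Notch2 (4.37) and Hey1 (4.15), and Nsl1 passed the dashed line at Notch2 alone (2.81).

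Among the 5′-most starts of the receptors, Notch2 carried most reads of both proteins within 500 bases. The Msl1 library held 45 reads there, or 4.37 times the local level (95% interval 3.16 to 5.89), and the Nsl1 library 34 reads, 2.81 times (1.94 to 3.95). Its TSS lies at 97817461 on chromosome 3, at the 5′ end of a gene of 136.8 kb. At Notch3, on chromosome 17, Msl1 had 33 reads and a ratio of 2.16 (1.48 to 3.04), and Nsl1 had 22 reads and a ratio of 1.65 (1.03 to 2.51). At the 5′-most start of Notch1, at 26372183 on chromosome 2, the Msl1 library held 6 reads, or 0.409 times the local level (0.150 to 0.893), and the Nsl1 library 20 reads, 1.33 times (0.812 to 2.07). With starts joined when within 500 bases of each other, 2 annotated transcripts begin there.

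The value of Notch1 depended on the start. The start 12.8 kb further downstream, at 26359344, joins 3 transcripts, of which 2 are coding and begin at the same base, and the Msl1 library held 43 reads there, or 3.05 times the local level (2.20 to 4.14). The Nsl1 library held 19 reads there, a ratio of 1.25 (0.752 to 1.97). A coding start between these, 7.01 kb downstream of the first, had 7 Msl1 reads and 17 Nsl1 reads, at 0.455 and 1.12 times the local level. Msl1 reads were thus above the local level at the start 12.8 kb downstream, and Nsl1 reads were below 2 times the local level at all 3 coding starts of Notch1.

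The ligands each had Msl1 reads of at least 2 times the local level. At Dll1, a Delta-type ligand, the Msl1 library held 30 reads, or 2.76 times the local level (1.85 to 3.97), and the Nsl1 library 21 reads, 1.53 times (0.945 to 2.35). At Jag1 the values were 21 Msl1 reads with a ratio of 2.47 (1.52 to 3.81) and 20 Nsl1 reads with a ratio of 1.93 (1.17 to 2.997). Jag1 was the gene just below the fold of 2 for Nsl1. At Jag2, 30 Msl1 reads gave a ratio of 2.23 (1.5001 to 3.20), whereas 6 Nsl1 reads gave 0.399 (0.146 to 0.870), the lowest Nsl1 value of the 10 genes.

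At Jag2 the Nsl1 reads around the start itself were few. Within 250 bases of it, the Msl1 library held 5 reads and the Nsl1 library 0, where the local level would give 6.72 and 7.53. By a bound on the upper side only, a count of 0 allows up to 3 reads, 0.399 times the local level. In the 1 kb around this TSS 77.5% of the bases were G or C. The highest Msl1 bin of Jag2, from 250 to 500 bases downstream, held 24 reads, or 7.15 times the local level (4.56 to 10.7).

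Rbpj, through which all 4 Notch receptors of the mouse act on their targets, also had starts with different values. At its 5′-most start, at 53947018 on chromosome 5, the Msl1 library held 24 reads, or 1.39 times the local level (0.890 to 2.08), and the Nsl1 library 13 reads, 1.01 times (0.537 to 1.74). At the start 34.4 kb downstream, at 53981454, within 500 bases of which 2 transcripts begin, the Msl1 library held 81 reads, or 4.73 times the local level (3.73 to 5.91), and the Nsl1 library 24 reads, 2.05 times (1.31 to 3.07). Against the level upstream alone, the Msl1 ratio at the 5′-most start was 2.08, past the fold of 2. The intervals of Msl1 at these 2 starts did not overlap, whereas those of Nsl1 did. With coding starts joined within 500 bases and the group of most coding transcripts used, a choice made after seeing the data, Rbpj was measured at this start. The counts were then 9 of 10 for Msl1, beside 46.1% of genes, and 2 of 10 for Nsl1, beside 42.0%.

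The targets held the highest Msl1 value of the list. At Hes5, on chromosome 4, the Msl1 library held 54 reads, or 5.02 times the local level (3.74 to 6.599), and the Nsl1 library 12 reads, 0.851 times (0.439 to 1.49). At Hey1, on chromosome 3, it held 36 reads, 4.15 times (2.88 to 5.79), and the Nsl1 library 13 reads, 1.17 times (0.618 to 2.002). The intervals of Msl1 and Nsl1 did not overlap at Hes5, Hey1 and Jag2, where Msl1 was the higher, and overlapped at the other 7 genes. The share of all TSSs with such a gap was not counted. Hes5, Hey1 and Jag2 lie among the TSSs of highest GC content (66.9% to 82.4%). The median ratios of those TSSs were 2.89 for Msl1 and 1.91 for Nsl1. At Hes1, on chromosome 16, 23 Msl1 reads gave a ratio of 2.01 (1.27 to 3.04), just inside the fold of 2, and 25 Nsl1 reads gave 1.69 (1.09 to 2.51).

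In the order of the Msl1 ratio, the genes were Hes5, Notch2, Hey1, Dll1, Jag1, Jag2, Notch3, Hes1, Rbpj and Notch1. No neighbours in this order differed beyond their intervals, but the interval of Hes5 lay above those of Jag2, Notch3, Hes1, Rbpj and Notch1. In the order of the Nsl1 ratio, Notch2, Jag1, Hes1, Notch3, Dll1, Notch1, Hey1, Rbpj, Hes5 and Jag2, neighbours likewise overlapped. The interval of Notch2 lay above those of Rbpj, Hes5 and Jag2. Against all tested TSSs, Hes5 was above 96.6% of them for Msl1 and above 12.6% for Nsl1, and Notch2 was above 93.4% and 73.4%.

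Within 2 kb of the TSS, Msl1 reads were at least 2 times the local level at 7 of the 10 genes, all but Notch1, Notch3 and Rbpj, beside 29.6% of all TSSs, and Nsl1 reads at 0 of 10, beside 16.8%. The highest Msl1 ratio in this wider window was that of Hes1, with 146 reads and 3.19 times the local level (2.67 to 3.80), followed by Dll1 with 134 reads and 3.09 times (2.56 to 3.70). For Nsl1 the ratio lay between 0.895 (Rbpj) and 1.71 (Jag1). Widening the window thus moved Hes1 from position 8 to position 1 of the Msl1 order and Hes5 from position 1 to position 5, although their intervals overlapped in the wider window.

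The profiles in bins of 250 bases, which reach 5 kb to each side, show where these reads lay. Each highest bin was picked as the largest within 2 kb of the TSS. Its interval does not allow for this choice, so an interval above the local level is no test of the bin. At Hes1 the highest Msl1 bin lay from 1000 to 1250 bases downstream of the TSS, over an exon, with 24 reads and 8.40 times the local level (5.35 to 12.6). The highest Nsl1 bin of Hes1 lay directly upstream of the TSS, from -250 to 0 bases, with 12 reads and 3.25 times the local level (1.68 to 5.70). At Notch2 the Nsl1 maximum lay in the same bin before the TSS, with 13 reads (4.30 times, 2.28 to 7.39), and the Msl1 maximum from 250 to 500 bases downstream, with 22 reads (8.54 times, 5.33 to 13.01). Within 2 kb of the TSS, Msl1 was also highest from 250 to 500 bases at Notch3, Jag2 and Hey1, and from 0 to 250 bases at Hes5, with 27 reads and 10.03 times the local level (6.58 to 14.7).

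Some high Msl1 bins lay upstream of the start, as at Hes1 from -1750 to -1500 bases, with 17 reads and 5.95 times the local level. The bin from -750 to -500 bases held 16 Msl1 reads at Dll1 (5.90 times the local level, 3.36 to 9.62) and 14 at Jag1 (6.597 times, 3.59 to 11.1). In each gene 1 other bin held as many, at Jag1 the bin from -500 to -250 bases, and at Dll1 the downstream bin from 500 to 750 bases. At Dll1 a noncoding transcript starts 896 bases upstream and the lincRNA A930024N18Rik starts 976 bases downstream on the other strand. Within 500 bases of the A930024N18Rik start lay 49 Msl1 reads, 4.53 times the local level, and 24 Nsl1 reads, 1.74 times. Near Hes5 the noncoding RP24-89N4.5 starts 755 bases downstream on the other strand, with 37 Msl1 reads within 500 bases of its start, 3.44 times the local level, and 18 Nsl1 reads, 1.28 times. Pank4 starts 3.20 kb downstream of the Hes5 start, with 31 Msl1 reads within 500 bases, 2.84 times the local level, and 33 Nsl1 reads, 2.33 times. The Msl1 bin from 3750 to 4000 bases downstream of the Hes5 start, past the start of Pank4, held 16 reads, 5.94 times the local level. At Notch3 an intronic bin from 4250 to 4500 bases held 20 Msl1 reads, 5.23 times the local level, and 13 Nsl1 reads, 3.90 times. Within 2 kb, the highest Nsl1 bins of Notch1, Rbpj and Hes5 held 6 to 8 reads, and their intervals included the local level. Further out, the Nsl1 library held 11 reads from -3500 to -3250 bases at Notch1, 2.93 times the local level, and 11 reads from 3500 to 3750 bases at Hes5, 3.12 times. That bin of Hes5 lies past the start of Pank4 and overlaps the window of 500 bases already counted there.

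**Figure D2:**
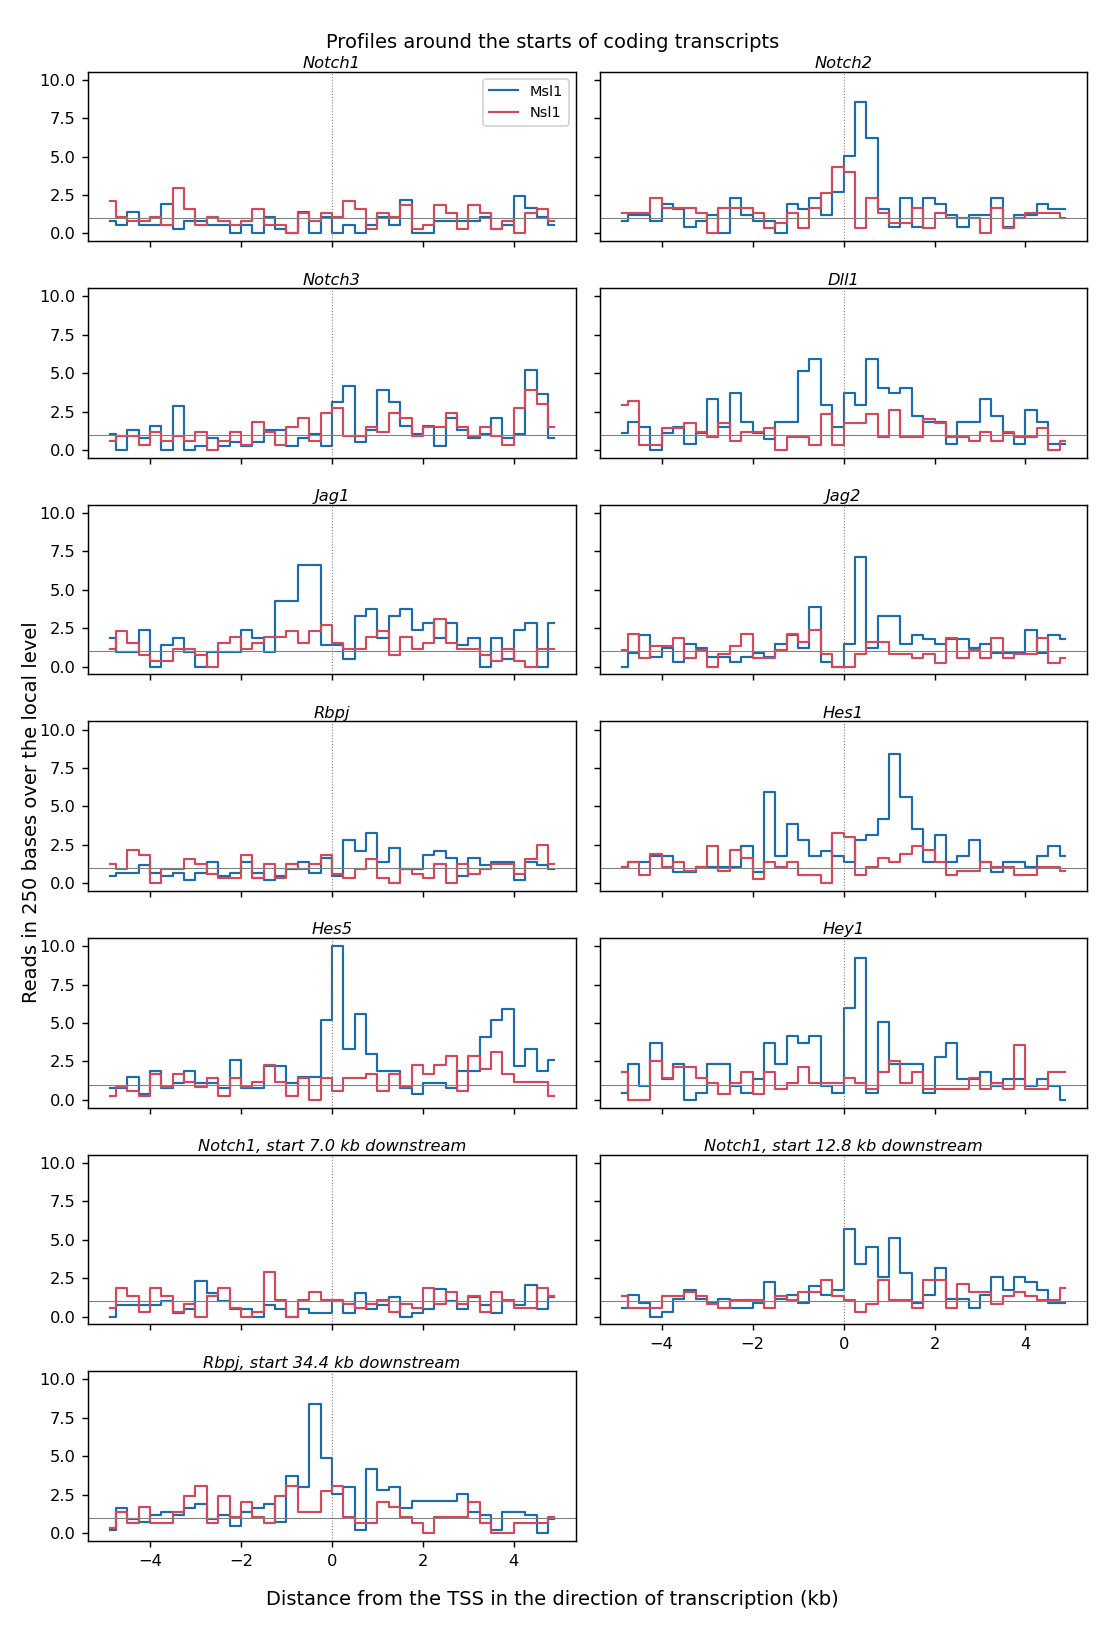
Reads in bins of 250 bases over the local level (y axis) against the distance from the TSS in kb (x axis) for the 10 genes and for 3 further coding starts of Notch1 and Rbpj, with Msl1 in blue and Nsl1 in red. Msl1 reached 10.03 at Hes5, 9.22 at Hey1 and 8.54 at Notch2 just downstream of the TSS, and 8.40 at Hes1 from 1000 to 1250 bases, while Nsl1 reached 4.30 at Notch2.

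Over the 10 genes together, the Nsl1 read density downstream was close to that at the TSS. The read density between 500 and 2000 bases downstream, divided by those within 500 bases of the TSS, gave 0.939 for Nsl1 (0.775 to 1.14, from 262 and 186 reads). Over all tested TSSs the same value was 0.483 (0.481 to 0.485), and over those rich in CG dinucleotides 0.371. For Msl1 it was 0.932 (0.802 to 1.08, from 422 and 302 reads), beside 0.844 (0.841 to 0.848) over all tested TSSs. Single genes spread widely for Msl1, from 0.444 at Hes5 (0.283 to 0.690) and 0.504 at Notch2 (0.313 to 0.804) to 2.17 at Hes1 (1.35 to 3.64). For Nsl1 it was lowest at Notch2, 0.412 (0.227 to 0.730), and highest at Jag2, 2.56 (1.01 to 7.67), where few reads lay at the TSS. All these values count reads of the local level, which move a value toward 1 where few reads lie above that level. The median Nsl1 ratio at the TSSs of the 10 genes was 1.43. Whether their Nsl1 value reflects few reads at the TSS or a spread downstream was not tested. With the local level taken off, the summed values of the 10 genes were 0.789 for Nsl1 and 0.886 for Msl1. No such values were computed for all TSSs, so these have no background beside them.

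Along the 7 genes of at least 5 kb, Msl1 reads from 2 kb to the gene end lay between 0.973 times the local level at Notch3 (0.885 to 1.07) and 1.502 times at Dll1 (1.22 to 1.83). Jag1 had 1.48 times (1.31 to 1.67) and Jag2 1.27 times (1.12 to 1.44). Over 16091 protein-coding genes of this length the median was 1.06, with quartiles of 0.918 and 1.21. Nsl1 reads over the same stretches lay between 0.903 at Rbpj (0.832 to 0.981) and 1.18 at Jag1 (1.05 to 1.33), beside a median of 0.996.

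When the body was cut into 4 parts, the Msl1 level of Jag1 was 1.77 in part 1 (1.46 to 2.15) and 1.28 in part 4 (1.02 to 1.59), with overlapping intervals. In Rbpj it was 1.28 in part 1 (1.16 to 1.41) and 1.36 in part 2 (1.23 to 1.49), and 0.810 in part 3 (0.719 to 0.911), so parts 1 and 2 lay above part 3 beyond their intervals. The start 34.4 kb downstream lies in part 2 of Rbpj. In long genes the local level holds reads of the gene itself. Against the level upstream of the TSS alone, the Msl1 body ratio was 2.22 at Jag1, 1.60 at Rbpj, 1.57 at Notch1, 1.49 at Dll1, 1.39 at Notch2, 1.199 at Jag2 and 0.923 at Notch3, beside a median of 1.10, and the Nsl1 body ratios lay between 0.873 and 1.29. The bodies of Notch1 and Rbpj include their downstream coding starts. Within 2 kb of these lay 134 of the 1011 Msl1 body reads of Notch1 and 194 of the 1835 of Rbpj.

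**Figure D3:**
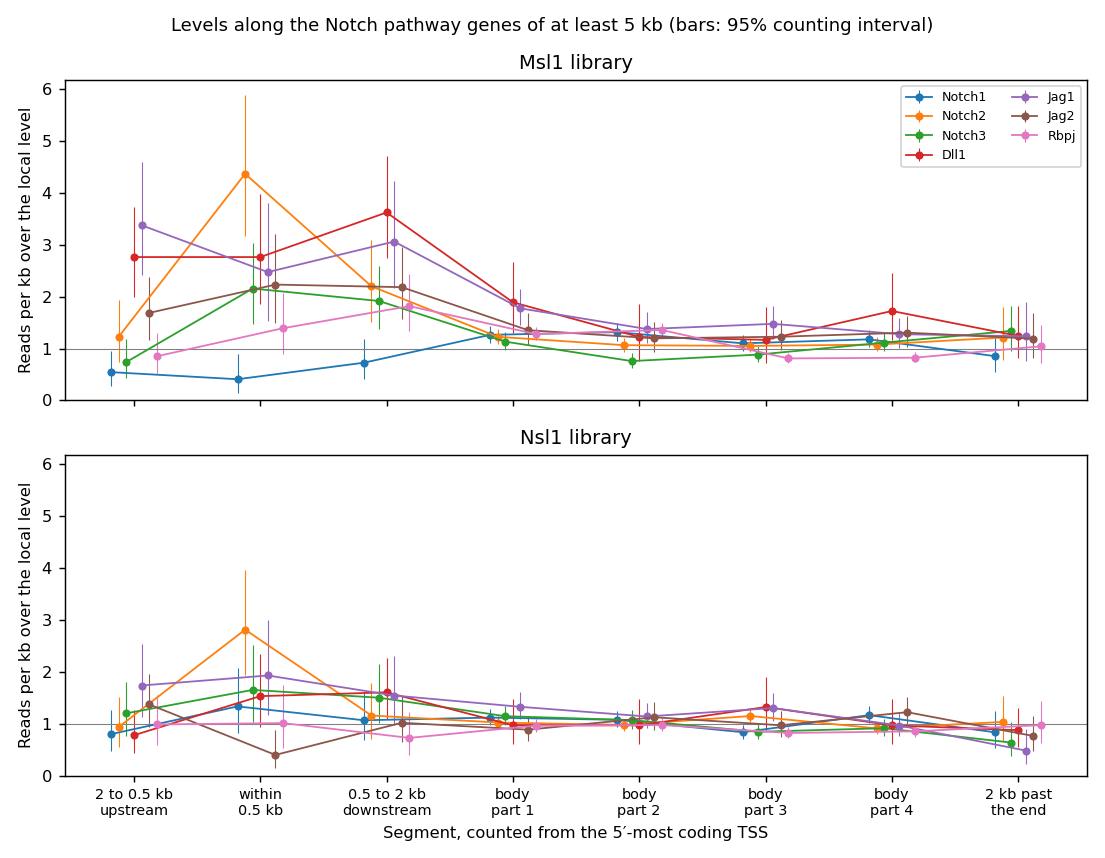
Reads per kb over the local level (y axis) in 8 segments from upstream of the TSS to past the gene end (x axis) for the 7 genes of at least 5 kb, with Msl1 above and Nsl1 below and 95% counting intervals. Msl1 was highest at Notch2 within 0.5 kb (4.37), where Nsl1 was also highest (2.81). From 0.5 to 2 kb downstream Msl1 was 3.62 at Dll1 and 3.06 at Jag1. Over body parts 3 and 4 of the 7 genes Msl1 lay between 0.810 (Rbpj) and 1.72 (Dll1).

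To compare both libraries at the same sites, the Msl1 reads within 2 kb were divided by the Nsl1 reads, per read of each library. Over the 14639 TSSs with at least 100 reads the median of this ratio was 1.28, and values below are given relative to it. The relative ratio was above 1 at 9 of the 10 genes, and at 7 of them its interval lay above 1, as it did at 21.9% of these TSSs. It reached 2 at 1 gene, Rbpj, with 2.02 (1.41 to 2.94), beside 4.38% of TSSs, and no gene was at or below 0.5, beside 4.97%. The next were Dll1 with 1.91 (1.42 to 2.59) and Hey1 with 1.86 (1.34 to 2.61). Notch1 had the lowest value, 0.548 (0.350 to 0.846), with fewer than 100 reads in all, and at its start 12.8 kb downstream the ratio was 1.74 (1.31 to 2.33). The median over the 10 genes was 1.72. Within 500 bases the relative ratio was at least 2 at 4 genes, Jag2 (6.11), Hes5 (5.50), Hey1 (3.38) and Rbpj (2.26), beside 12.6% of the 17431 TSSs with at least 20 reads there. It was at most 0.5 at 1 gene, Notch1 (0.367), beside 13.4%.

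The base composition of these windows moved with this ratio. Set against the TSSs of like GC content, in 10 bins of about equal size, the median of the 10 genes was 1.26 in place of 1.72. The ratio was higher than before at Rbpj, 2.70 in place of 2.02, and at Notch2, 1.39 in place of 1.36. It was lower at the other 8 genes, with 1.56 at Hey1, 1.36 at Dll1, 1.28 at Jag2, 1.25 at Hes1, 1.197 at Hes5, 1.04 at Notch3, 1.03 at Jag1 and 0.525 at Notch1. The interval was above 1 at 4 genes in place of 7, Rbpj (1.87 to 3.93), Hey1 (1.12 to 2.19), Notch2 (1.02 to 1.92) and Dll1 (1.01 to 1.84), beside 19.2% of TSSs. Over all tested TSSs in the bin of highest GC content within 500 bases (66.9% to 82.4%), which holds Notch2, Jag2, Hes5 and Hey1, 74.8% had Msl1 reads and 47.0% Nsl1 reads of at least 2 times the local level. The median ratios there were 2.89 for Msl1 and 1.91 for Nsl1. In the bin from 57.6% to 60.0%, they were 2.48 and 2.58. The library kits and read lengths cannot be told apart from the antibodies. The local levels also differed at Rbpj, with 17.2 Msl1 reads and 12.8 Nsl1 reads per kb, and with each library divided by its own local level the relative ratio of Rbpj was 1.33. With that scaling the ratio was at least 2 at 3 genes, Dll1 (2.13), Hey1 (2.11) and Hes1 (2.002), beside 4.62% of TSSs, and at most 0.5 at 1 gene, Notch1 (0.495), beside 4.56%.

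Of the 10 genes, 7 had a TSS rich in CG dinucleotides, with a ratio of observed to expected CG of at least 0.6 in the surrounding 1 kb, as did 47.1% of all tested TSSs. All but Notch1, Notch3 and Rbpj were in this class. Msl1 reads reached 2 times the local level at 7 of these 7 genes, beside 75.8% of all TSSs of the class, and Nsl1 reads at 1 of 7, beside 66.8%. Of these 7 genes, Notch2, Jag2, Hes5 and Hey1 also lie in the bin of highest GC content, where the share of TSSs called for Nsl1 was 47.0%.

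The pathway has many further parts, and 45 other genes were taken as a list drawn up for comparison, also with earlier results of these data known. Msl1 reads reached 2 times the local level at 31 of them (median 2.32) and Nsl1 reads at 20 (median 1.85), read against the same 46.0% and 41.9%, and 17 were called in both libraries, read against 30.7%. Of the 45 genes, 32 had a TSS rich in CG dinucleotides. Msl1 reads reached the fold at 27 of these 32 and Nsl1 reads at 19, beside 75.8% and 66.8% of all TSSs of this class. The counts by role were not set against this class. By role, Nsl1 reads reached the fold at 6 of 8 genes for cutting the receptor and at 4 of 5 genes for its glycosylation, but at 0 of 4 further ligands and 2 of 9 further targets or members of the Hes and Hey families. For Msl1 the counts were 5 of 8, 4 of 5, 3 of 4 and 8 of 9. Among trafficking and turnover genes 7 of 11 were called for Msl1 and 5 of 11 for Nsl1, and among nuclear cofactors 4 of 7 and 3 of 7. The only further receptor, Notch4, was called in neither library (1.48 for Msl1 and 1.61 for Nsl1).

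The highest Nsl1 ratios of this list were those of Kdm5a, a histone demethylase that binds Rbpj, with 156 reads (13.3), and Ncstn, the nicastrin subunit of gamma-secretase, with 151 reads (12.02). Snw1, a cofactor of Rbpj, followed with 73 reads (7.16) and Adam17, a protease that sheds Notch, with 56 reads (5.07). Each of these exceeded the 2.81 of Notch2. The lowest Nsl1 ratios, among genes with at least 20 reads in the libraries together, were those of the ubiquitin ligase gene Dtx1 (0.833) and the coactivator gene Maml3 (0.858). With fewer reads than that, Psen2 lay lower, with 6 Nsl1 reads and a ratio of 0.425 (0.156 to 0.927), and Maml2 had 0.852.

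For Msl1 the highest ratios were those of Fbxw7, whose protein marks the cut receptor for breakdown, with 65 reads (6.87), and Itch, a ubiquitin ligase, with 37 reads (5.46). Ncstn had 49 Msl1 reads (4.50) and Numb, an inhibitor of the receptor, had 50 (4.17). The lowest, among genes with at least 20 reads in the libraries together, were the protease gene Furin (0.925) and Dtx2 (1.05). Below that number of reads, Psen2 was lower still, with 8 Msl1 reads (0.821). Summed over the list, the downstream value was 0.901 in the Msl1 library (0.841 to 0.966) and 0.492 in the Nsl1 library (0.455 to 0.532). The interval of Nsl1 lay below that of the 10 genes, 0.775 to 1.14. Both intervals cover counting error in the summed reads and not the spread between genes, which for Nsl1 ran from 0.412 to 2.56 among the 10. In the sum of the list, Kdm5a gave 156 Nsl1 reads within 500 bases and 23 downstream, and Ncstn 151 and 14. Whether the lists differ was not tested.

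**Figure D4:**
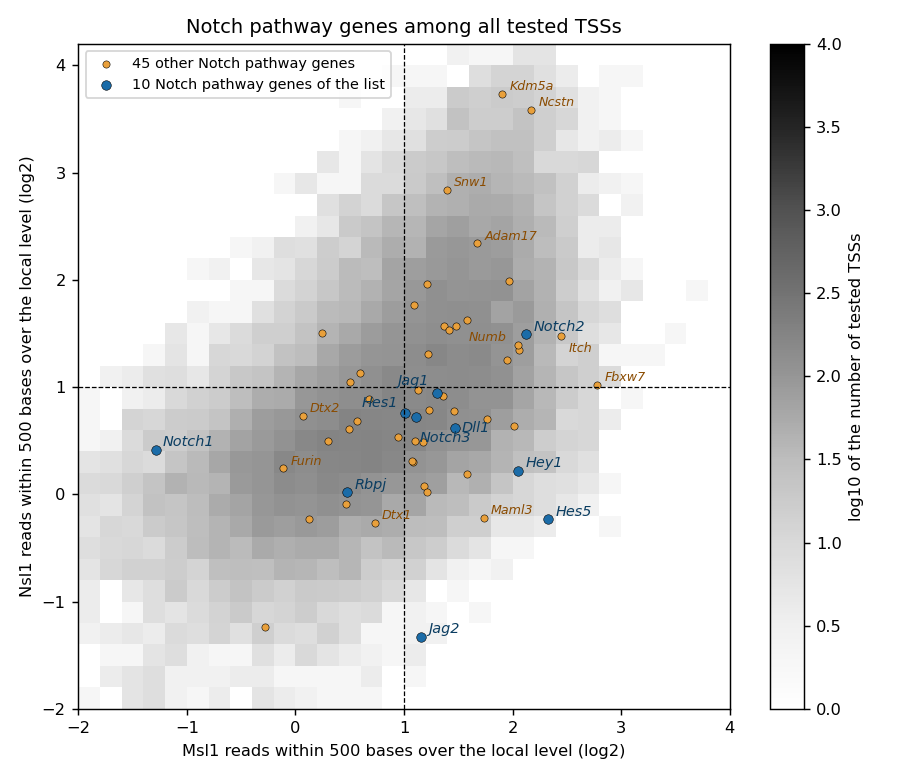
Nsl1 (y axis) against Msl1 (x axis) reads within 500 bases over the local level, both as log2, with the 10 genes in blue, the 45 other pathway genes in orange and the number of all tested TSSs per cell in grey; dashed lines mark 2 times the local level. Kdm5a, Ncstn and Snw1 lie highest for Nsl1, whereas Hes5 and Hey1 lie at high Msl1 values and below the dashed line for Nsl1, and Jag2 lies lowest for Nsl1.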

How the data were processed

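Reads were from single-end ChIP-seq of wild type mESCs, aligned by the authors to mm9. The submitters' processing notes name Bowtie 0.12.7 and CASAVA 1.8.2, and the study used unique reads. The deposited files give the position and strand of each read, 50 bases long for Msl1 and 36 for Nsl1, and a score that is 255 on every line and was not used. From the 23888517 and 26084098 deposited reads, mitochondrial reads were left out and 1 read was kept per position and strand. Reads were moved to the fragment middle by 105 bases (Msl1) and 66 bases (Nsl1), from fragment lengths of 211 and 132 bases, at which the strands correlated best (chromosomes 16, 18 and 19). TSSs were taken from GENCODE M1 on mm9, as the 5′-most start of the coding transcripts, and coordinates count from 1. Intervals of ratios are exact conditional binomial intervals. Python 3.11.15, numpy 2.4.6, pandas 2.3.3, scipy 1.17.1 and matplotlib 3.10.9 were used, and the counting was tested on simulated reads. The 10 genes and the list of 45 others, which the analyst drew up, were chosen with earlier results of these data known. Named among the 45 were the 4 highest ratios in each library and the 2 lowest with at least 20 reads in the libraries together. Genes that start within 5 kb of the 5′-most coding start of any of the 10 were named too. Alternatives covered duplicates, windows, local level, start and base composition. No Input library was used here, and no peaks were called.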

Additional observations from a re-analysis of the deposited data

How the results depend on the processing

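The Msl1 count of 8 of 10 genes was between 7 and 9 under each of the 7 alternatives run. The Nsl1 count of 1 was 0 with a window of 2000 bases, 2 against the upstream level alone, where Jag1 joined, 2 with coding starts joined within 500 bases, where Rbpj joined, and 6 against the mean level of the library over the genome. Among the 45 other genes, a window of 2000 bases lowered the counts to 19 for Msl1 and 5 for Nsl1, beside 29.6% and 16.8% of all TSSs. The genome level gave 41 for Msl1 and 34 for Nsl1, beside 58.2% and 52.6%. The relative ratio of Msl1 to Nsl1 was at least 2 or at most 0.5 at 5 genes within 500 bases and at 4 genes over the local level, instead of 1, and Rbpj was not among those 4. The cause was not tested. With the base at which most coding transcripts start, the Msl1 ratio of Notch1 was 3.05 instead of 0.409. That setting kept the 5′-most start of Rbpj, where no coding transcripts share a base, and with starts joined within 500 bases, chosen after seeing the data, it was 4.73 instead of 1.39 for Msl1 and 2.05 instead of 1.01 for Nsl1. The downstream values of both libraries stayed within their intervals under each alternative run. Depth limits the single genes, since windows within 500 bases held 6 to 54 reads. No paired analysis was possible because each antibody had 1 library.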
